A study of Macaca radiata with 6 samples.

Results

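GBP1, GBP2 and IRF1 are genes that interferon-gamma induces, and they were followed here in the monkey corpus luteum after prostaglandin F2-alpha (PGF2alpha). They were read from every probe set of the Affymetrix Rhesus array whose only annotated symbol is GBP1, GBP2 or IRF1, which gave 10 of the 52865 probe sets in the table. GBP1 had 6 of them, GBP2 had 3 and IRF1 had 1. In the PGF2alpha group, female bonnet monkeys (Macaca radiata) received 3 intramuscular injections of PGF2alpha at 59 µg/kg on day 10 of the luteal phase. The vehicle group received phosphate-buffered saline. The corpus luteum is the progesterone-secreting gland that forms in the ovary after ovulation, and PGF2alpha is a prostaglandin that makes it regress. The tissue was taken 24 h after PGF2alpha or vehicle, and each group had 3 arrays. The labels give no age and name no animal for an array, so every p-value reflects only sample-to-sample spread, part of which may be technical.

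Interferon-gamma is a cytokine released mainly by T lymphocytes and natural killer cells. Its receptor activates the kinases JAK1 and JAK2, and the signal they start induces target genes, IRF1 among the earliest. IRF1 is itself a transcription factor that switches on a second layer of targets, including the guanylate-binding proteins GBP1 and GBP2 and the genes that load peptides on class I histocompatibility molecules. GBP1 and GBP2 are large GTPases that assemble on the membranes of intracellular bacteria and parasites. In cultured bovine luteal cells, interferon-gamma is known to raise class II histocompatibility molecules and to lower progesterone output.

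The values are the deposited MAS5 signals, linear brightness values per probe set, which the authors had scaled so that every array had a trimmed mean of 500.0. The median signal of the arrays lay between 114.9 and 134.0. The arrays fell into 2 hybridisation runs by the times in the scanner files. PGF2alpha replicate 2 and vehicle replicate 4 made up run 2, and the other 4 arrays were in run 1. The recorded scan time of vehicle replicate 4 precedes its hybridisation time, so these times are coarse, and every within-run value below rests on them. The ratio of the 3-prime to the 5-prime control of beta-actin, a measure of RNA integrity, was 1.73 to 1.78 in PGF2alpha arrays and 1.49 to 2.25 in vehicle arrays (exact permutation test, two-sided, p = 1.0, n = 3 each). The label of the tissue was checked on 8 steroidogenic markers named on the array (STAR, FDX1, FDXR, HSD3B2, INHA, CYP17A1, CYP19A1 and NR5A1), and none of them lay below the median of every array.

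None of the 3 genes passed the test between PGF2alpha and vehicle at 24 h. Of the 10 probe sets, 8 passed the brightness filter, and 0 of these 8 had an adjusted p under 0.05 by limma with Benjamini-Hochberg adjustment over all probe sets tested. Over the whole array, 1351 of 26944 tested probe sets (5.01%) passed that threshold, 3.02% higher and 1.99% lower after PGF2alpha. At an unadjusted p under 0.05 there were 2 of the 8, both of GBP1 and both lower after PGF2alpha, against 21.0% of all tested probe sets. The signs of these uncalled estimates varied. All 4 tested GBP1 probe sets had negative log2 fold changes, the 3 of GBP2 had both signs, and IRF1 stood slightly above 0. With no member called, these signs do not show that the genes differ in direction.

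**Figure D1:**
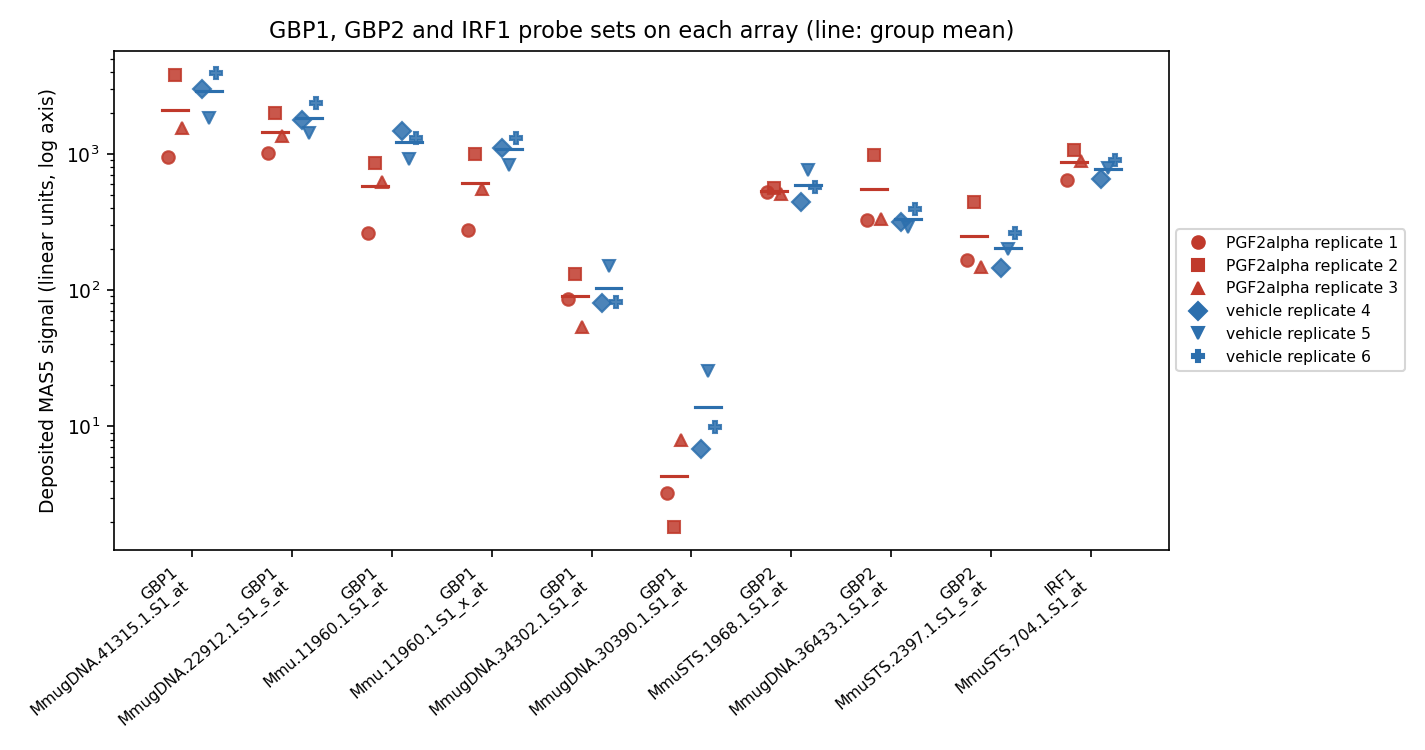
Deposited MAS5 signal on a log axis for the 10 probe sets of GBP1, GBP2 and IRF1. Each symbol is 1 array, PGF2alpha in red on the left and vehicle in blue on the right of each pair, and the line is the group mean; the groups overlap in every tested probe set other than Mmu.11960.1.S1_at, and PGF2alpha replicate 2 is the highest red symbol in all 8 tested ones.

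IRF1, the transcription factor of the group, was read by the single probe set MmuSTS.704.1.S1_at. Its signals were 645, 1074 and 887 in PGF2alpha replicates 1, 2 and 3, against 651, 788 and 899 in vehicle replicates 4, 5 and 6. The lowest array of each group lay at almost the same level, and the vehicle range sat inside the PGF2alpha range. IRF1 averaged 869 ± 215 after PGF2alpha and 780 ± 124 after vehicle (SD, n = 3 each). Its log2 fold change, on the log2(signal + 40) scale used throughout, was 0.13 (SE 0.211, limma adjusted p = 0.781). The 95% interval of that difference ran from 0.788-fold to 1.52-fold, so these arrays bound the change of IRF1 below 2-fold either way. Within run 1 the log2 difference was -0.15 and within run 2 it was 0.69. Without PGF2alpha replicate 2 it was -0.03.

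GBP1 was read by 4 tested probe sets, and 2 of them, MmugDNA.22912.1.S1_s_at and Mmu.11960.1.S1_x_at, carry suffixes that mark probes able to bind related transcripts. MmugDNA.41315.1.S1_at, the one of highest mean, had signals of 952, 3773 and 1554 in PGF2alpha replicates 1, 2 and 3, against 3005, 1832 and 3905 in vehicle replicates 4, 5 and 6. PGF2alpha replicates 1 and 3 lay below all 3 vehicle arrays, while replicate 2 lay above all vehicle arrays but replicate 6. Its mean was 2093 ± 1490 after PGF2alpha and 2914 ± 1040 after vehicle (SD, n = 3 each), a log2 fold change of -0.63 (SE 0.448, limma adjusted p = 0.468). The 95% interval, from 0.32-fold to 1.3-fold, held both a loss of more than 2-fold and no change. It left room for an increase of at most 1.3-fold.

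The groups did not overlap in 1 GBP1 probe set, Mmu.11960.1.S1_at. It read 262, 858 and 620 in PGF2alpha replicates 1, 2 and 3, against 1475, 924 and 1300 in vehicle replicates 4, 5 and 6. Every PGF2alpha array was thus below every vehicle array, a separation in the lower direction that 13.7% of all tested probe sets showed (26.8% in either direction). The log2 fold change was -1.15 (SE 0.362, 95% interval -1.97 to -0.33), and the limma adjusted p was 0.107. By its unadjusted p, 10.3% of all tested probe sets had a value as small or smaller. Its log2 difference was negative within both runs, at -1.35 in run 1 and -0.75 in run 2, where each group has 1 array. Among the tested member probe sets, Mmu.11960.1.S1_x_at was also negative within both.

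The other GBP1 probe sets gave smaller differences. Mmu.11960.1.S1_x_at read 277, 998 and 550 in PGF2alpha replicates 1, 2 and 3, against 1100, 826 and 1316 in vehicle replicates 4, 5 and 6. Only PGF2alpha replicate 2 reached the vehicle range, and the log2 fold change was -0.93 (SE 0.376, limma adjusted p = 0.198). MmugDNA.22912.1.S1_s_at read 1015, 1992 and 1354 in PGF2alpha replicates 1, 2 and 3, against 1765, 1430 and 2351 in vehicle replicates 4, 5 and 6. There the groups overlapped broadly, and the log2 fold change was -0.36 (SE 0.26, limma adjusted p = 0.477). Within runs 1 and 2 the log2 differences were -1.33 and -0.14 for Mmu.11960.1.S1_x_at. They were -0.63 and 0.17 for MmugDNA.22912.1.S1_s_at, and -1.11 and 0.32 for MmugDNA.41315.1.S1_at. In 2 of the 4 probe sets the sign therefore differed between the runs.

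A pair of GBP1 probe sets stayed below the filter and was not tested. MmugDNA.34302.1.S1_at lay between 53.5 and 132 in PGF2alpha arrays and between 80.4 and 150 in vehicle arrays. MmugDNA.30390.1.S1_at lay between 1.82 and 7.89 in PGF2alpha arrays and between 6.82 and 25.3 in vehicle arrays. The first was above its array's median on 1 array of each group and the second on none, so they carry little information on GBP1. In addition, 3 probe sets of the array are annotated to GBP1 together with its close paralog GBP3 and are no members. Of these, Mmu.11961.1.S1_at and Mmu.11961.1.S1_x_at were tested and did not pass, with log2 fold changes of -0.47 (limma adjusted p = 0.639) and -0.27 (limma adjusted p = 0.694). MmugDNA.19878.1.S1_at, annotated to a further locus as well, lay the other way, at 70.5 to 75.1 in PGF2alpha arrays and 22.2 to 48.4 in vehicle arrays. It was below the median of every array and was not tested.

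GBP2 was read by 3 probe sets, of which MmugDNA.36433.1.S1_at and MmuSTS.2397.1.S1_s_at followed each other and MmuSTS.1968.1.S1_at did not follow them. MmuSTS.1968.1.S1_at, the one of highest mean on the log2 scale, read 528, 565 and 505 in PGF2alpha replicates 1, 2 and 3, against 441, 758 and 576 in vehicle replicates 4, 5 and 6. The PGF2alpha arrays were close together in the middle of the vehicle range. The means were 532 ± 30.3 after PGF2alpha and 592 ± 159 after vehicle (SD, n = 3 each), a log2 fold change of -0.11 (SE 0.202, limma adjusted p = 0.806). For this probe set the 95% interval ran from 0.674-fold to 1.27-fold, which lies within 2-fold either way. The interval ran from 0.793-fold to 2.47-fold for MmugDNA.36433.1.S1_at and from 0.626-fold to 1.97-fold for MmuSTS.2397.1.S1_s_at. Taken over its probe sets, GBP2 is therefore not bounded within 2-fold. Within runs 1 and 2 the log2 differences were -0.34 and 0.33.

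MmugDNA.36433.1.S1_at, also GBP2, read 330, 982 and 336 in PGF2alpha replicates 1, 2 and 3, against 317, 292 and 397 in vehicle replicates 4, 5 and 6. PGF2alpha replicate 2 alone stood apart, and the other PGF2alpha arrays lay inside the vehicle range. The log2 fold change was 0.48 (SE 0.363, limma adjusted p = 0.498), and without PGF2alpha replicate 2 it was -0.00028. The third GBP2 probe set, MmuSTS.2397.1.S1_s_at, read 167, 442 and 147 in PGF2alpha replicates 1, 2 and 3, against 147, 201 and 263 in vehicle replicates 4, 5 and 6. It had the same high array, and its log2 fold change was 0.15 (SE 0.366, limma adjusted p = 0.864), or -0.28 without PGF2alpha replicate 2. Within runs 1 and 2 the log2 differences were -0.03 and 1.52 for MmugDNA.36433.1.S1_at, and -0.46 and 1.37 for MmuSTS.2397.1.S1_s_at. Run 2 holds 1 array of each group, so the run and the single arrays cannot be told apart.

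**Figure D2:**
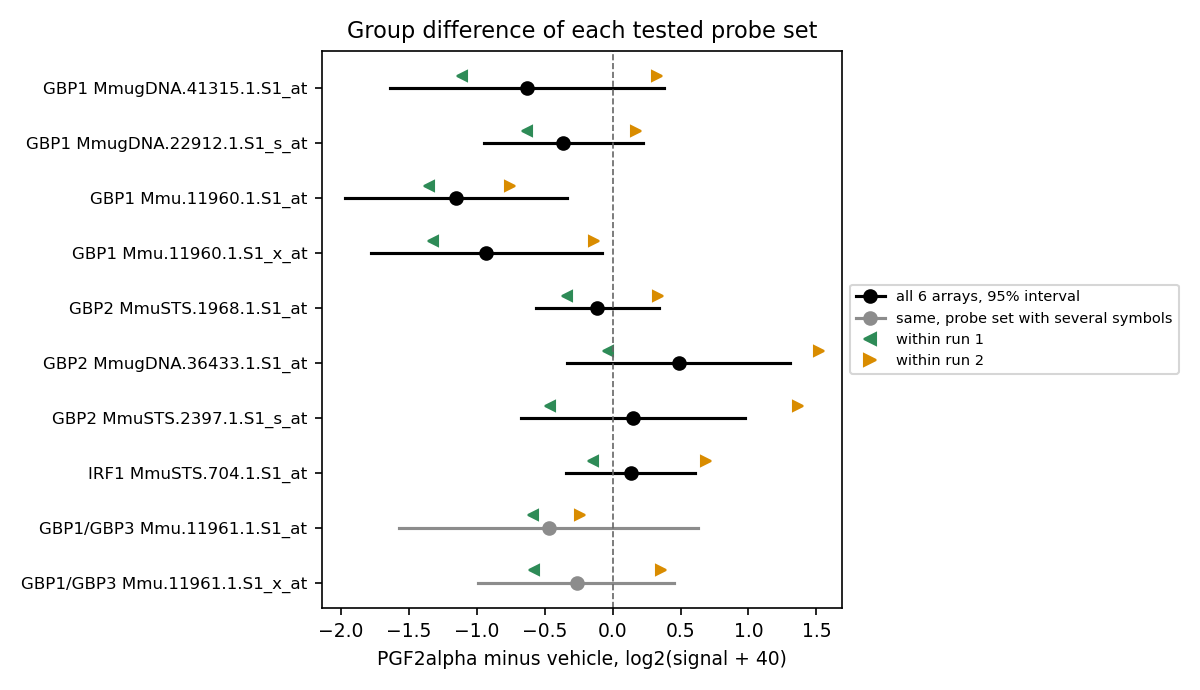
Difference between PGF2alpha and vehicle on the log2(signal + 40) scale, with its 95% interval, for the 8 tested probe sets of GBP1, GBP2 and IRF1 in black and 2 probe sets shared by GBP1 and GBP3 in grey. Triangles give the difference within each hybridisation run; in all 8 black rows the run 2 value lies to the right of the run 1 value.

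The sizes of the changes were then set against each other within each array. The log2 signal of GBP1 minus that of GBP2, by their probe sets of highest mean, changed by -0.52 between the groups (exact permutation test, two-sided, p = 0.5, n = 3 each). The change of GBP1 minus that of IRF1 was -0.77 (exact permutation test, p = 0.2), and that of GBP2 minus IRF1 was -0.24 (exact permutation test, p = 0.4). After Benjamini-Hochberg adjustment over the 3 pairs every exact p was 0.5. The smallest p that 3 against 3 arrays allow is 0.1, so this test could not pass 0.05, and it does not show that the members act alike.

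The tested probe sets of the 3 genes shared their highest PGF2alpha array. PGF2alpha replicate 2 was the highest PGF2alpha array in 8 of the 8 tested member probe sets, whereas it was the highest in 30.4% of all tested probe sets. The lowest was PGF2alpha replicate 1 in 6 of the 8, against 31.0% of all, and replicate 3 in 2 GBP2 probe sets. Among vehicle arrays replicate 6 was the highest in 6 of the 8, against 28.6% of all, while the lowest was replicate 5 in 5 of the 8 and replicate 4 in 3. The spread within the PGF2alpha group was wide for GBP1, with the highest array 3.96 times the lowest in MmugDNA.41315.1.S1_at, against 2.13 times in the vehicle group. For IRF1 these ratios were 1.66 in the PGF2alpha group and 1.38 in the vehicle group. The 4 tested GBP1 probe sets read the same gene, so their agreement counts as 1 gene and not as 4.

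**Figure D3:**
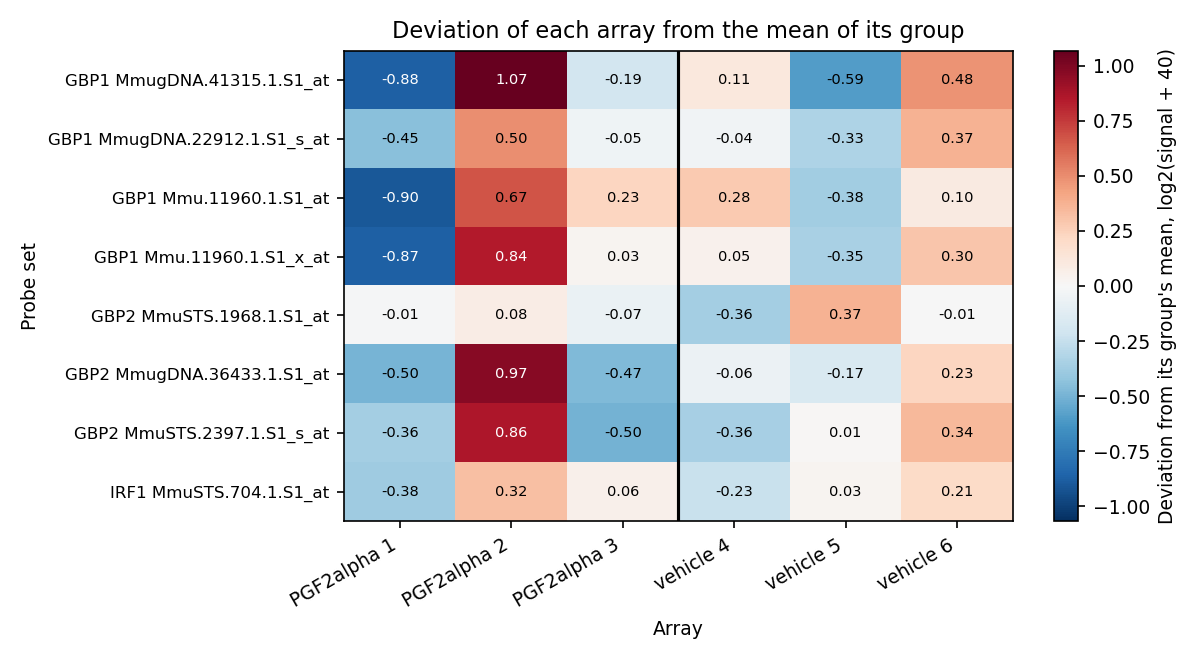
Deviation of each array from the mean of its own group, on the log2(signal + 40) scale, for the 8 tested probe sets of GBP1, GBP2 and IRF1. PGF2alpha replicate 2 is above its group mean in every row, by 1.07 in the top row and by 0.08 for GBP2 in MmuSTS.1968.1.S1_at, and PGF2alpha replicate 1 is below it in every row.

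Across the 6 arrays, Pearson correlations of log2 signals between the tested GBP1 probe sets ran from 0.85 to 0.98 with a median of 0.94. Those between the 3 GBP2 probe sets ran from -0.01 to 0.91, so MmuSTS.1968.1.S1_at did not track the other pair. Between GBP1 and IRF1 the median was 0.49 over 4 pairs, and after subtraction of each group's mean it was 0.79. Between GBP1 and GBP2 it was 0.25 over 12 pairs, and 0.71 after that subtraction. The GBP2 probe set MmuSTS.1968.1.S1_at differed from this median. After the subtraction its correlations with the 4 GBP1 probe sets were all negative, from -0.291 to -0.105. These values rest on 6 arrays and describe them only.

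Summed macrophage and natural killer cell markers were also highest in PGF2alpha replicate 2, though single markers differed in this. In PGF2alpha replicates 1, 2 and 3, the summed signal of 14 macrophage markers was 52540, 86290 and 58540, against 36020, 21310 and 32450 in vehicle replicates 4, 5 and 6. Of the 14, 7 rose and 0 fell, beside 3.76% of all 9980 tested genes higher, 2.31% lower and 6.07% in either direction. Among the 7, MARCO averaged 60.4 in vehicle arrays, under the lowest array median of 114.9, and 568 in PGF2alpha arrays. It met the brightness filter through the PGF2alpha arrays, so its call is no separate support. The brightest of the 14, the secreted antibacterial enzyme LYZ, gave 52130 of the sum in PGF2alpha replicate 2. Without LYZ, a sum chosen after the values were seen, it was 27780, 34160 and 30410 in PGF2alpha replicates 1, 2 and 3, against 14880, 8853 and 12510 in vehicle replicates 4, 5 and 6. Replicate 2 was the highest PGF2alpha array in 7 of the 14 markers, replicate 3 in 5, the complement genes C1QA, C1QB and C1QC among them, and replicate 1 in 2.

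The sum of 7 natural killer cell markers was 42300, 47240 and 30700 in PGF2alpha replicates 1, 2 and 3, against 20530, 20160 and 17020 in vehicle replicates 4, 5 and 6. The groups did not overlap, but the separation came from 1 gene, GNLY, which encodes a protein of cytotoxic granules. GNLY read 21590, 30860 and 15560 in PGF2alpha replicates 1, 2 and 3, against 1973, 2934 and 3322 in vehicle replicates 4, 5 and 6, and it was the only one of the 6 tested to rise (log2 fold change 3.005, limma adjusted p = 0.00186). Without GNLY the sum was 20710, 16380 and 15140 in PGF2alpha replicates 1, 2 and 3, against 18560, 17230 and 13700 in vehicle replicates 4, 5 and 6, and the groups overlapped. The granule protease GZMA stood at -0.85 (limma adjusted p = 0.0584), and the brighter granule protease GZMB at 0.30 (limma adjusted p = 0.59). KLRD1 stood at 0.24, NCAM1 at 0.13 and NCR3 at -0.05. In bulk tissue fewer cells of a type and less RNA per cell cannot be told apart.

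Markers of T cells, the other source of interferon-gamma, did not separate the groups. The sum of the 5 named on the array was 637, 853 and 703 in PGF2alpha replicates 1, 2 and 3, against 812, 670 and 634 in vehicle replicates 4, 5 and 6, and 0 of the 2 tested passed. Sums for 5 B cell, 8 dendritic cell and 6 neutrophil markers were also highest in PGF2alpha replicate 2 among the PGF2alpha arrays, at 921, 3216 and 17220. By single markers, replicate 2 was the highest PGF2alpha array in 3 of the 5, 7 of the 8 and 2 of the 6. The other 4 neutrophil markers were highest in PGF2alpha replicate 1. Below the median of every array lay 1 B cell, 3 dendritic cell and 3 neutrophil markers. The sum of 8 luteal steroidogenic markers was 79920 to 145100 in PGF2alpha arrays and 163000 to 194800 in vehicle arrays, with 2 of 8 lower. The part of these cell types in the levels of GBP1, GBP2 and IRF1 was not tested.

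Upstream of the members, the ligand was read at low signals. The IFNG probe set read 24.7, 19.1 and 15.8 in PGF2alpha replicates 1, 2 and 3, against 48.4, 54.1 and 47.0 in vehicle replicates 4, 5 and 6. All 6 values lay below the array medians and the probe set was not tested, so no level of IFNG could be set above background. JAK2, a kinase of the receptor, stood at a log2 fold change of 0.42 (limma adjusted p = 0.227). SOCS1, the feedback inhibitor of that kinase, stood at -0.05 (limma adjusted p = 0.928). STAT3, a signal transducer of the interleukin-6 family that interferon-gamma also activates, stood at 0.94 (limma adjusted p = 0.0678). In the receptor and signalling list 0 of 4 tested genes passed (median 0.18, against -0.02 over all 9980 tested genes). IFNGR1, IFNGR2 and JAK1 are not analysed here.

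Cytokines and receptors that induce interferon-gamma did not pass either, with 0 of 4 tested genes called and a median log2 fold change of 0.46. IL18, a macrophage cytokine that drives interferon-gamma release, stood at 1.04 (limma adjusted p = 0.205). Its groups did not overlap, as in 26.8% of all tested probe sets. IL18 read 739, 2405 and 665 in PGF2alpha replicates 1, 2 and 3, against 546, 611 and 367 in vehicle replicates 4, 5 and 6. IL15, which sustains natural killer cells, stood at 0.64 (limma adjusted p = 0.285). The receptor chains IL12RB1 and IL12RB2 stood at 0.28 and 0.06.

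Among the relatives of IRF1 and the transactivators of histocompatibility genes, 1 of 9 tested genes rose and 0 fell. That is 11.1%, beside 3.76% of all genes higher. The gene that rose was IRF8, a factor of monocytes and dendritic cells that can bind DNA together with IRF1. IRF8 read 725, 1028 and 471 in PGF2alpha replicates 1, 2 and 3, against 330, 289 and 297 in vehicle replicates 4, 5 and 6. The log2 fold change was 1.11 (SE 0.253, limma adjusted p = 0.04), but of its 2 other probe sets 1 stood at -1.55 (limma adjusted p = 0.0754) and 1 at 0.58 (limma adjusted p = 0.386). IRF8 lost its call when PGF2alpha replicate 1 or 2 or any vehicle array was left out, with limma adjusted p from 0.0879 without vehicle replicate 4 to 0.123 without vehicle replicate 6. It also lost it with no filter (0.0718) and with eBayes without trend (0.0711). IRF5, a factor of macrophages, stood at 0.71 (limma adjusted p = 0.0605), and IRF2, an antagonist of IRF1 on shared sites, at -0.36 (limma adjusted p = 0.309). NLRC5, the transactivator of class I genes, stood at -0.57 (limma adjusted p = 0.0949), and CIITA, that of class II genes, at 0.56 (limma adjusted p = 0.398).

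Of the other guanylate-binding proteins, GBP6 and GBP7 were named on the array and lay below the filter. GBP6 averaged 44.0 in PGF2alpha arrays and 35.3 in vehicle arrays, and GBP7 averaged 16.6 in PGF2alpha arrays and 9.76 in vehicle arrays. The atlastins, membrane GTPases related to the guanylate-binding proteins that shape the endoplasmic reticulum, were tested as 3 genes, and 0 passed. ATL2 had the smallest p of them, at a log2 fold change of -0.52 (limma adjusted p = 0.082).

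Class I antigen presentation, the best known set of IRF1 targets, was measured by 13 tested genes. Of these 0 passed, beside 6.07% of all 9980 tested genes. Negative log2 fold changes were found in 11, against 5187 of all 9980 genes. The median was -0.16, against -0.02 over all genes. The immunoproteasome subunit PSMB10 stood at -0.73 (limma adjusted p = 0.0609), while its other probe set passed at -1.05 (limma adjusted p = 0.0127). The peptide transporter TAP1 stood at -0.49 (limma adjusted p = 0.237), the immunoproteasome subunit PSMB8 at -0.35 (limma adjusted p = 0.578) and the class I gene MAMU-I at -0.78 (limma adjusted p = 0.195). Other MAMU-I probe sets had both signs, at 0.368 (limma adjusted p = 0.715) and -0.385 (limma adjusted p = 0.596). B2M, the light chain of all class I molecules, averaged 55360 ± 3770 after PGF2alpha and 60410 ± 10200 after vehicle (SD, n = 3 each).

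Class II presentation was measured by 9 tested genes. Of these 2 rose and 0 fell (22.2%, beside 3.76% of all genes higher and 6.07% in either direction). Positive log2 fold changes were found in 8, against 4793 of all 9980 tested genes, and the median was 0.74. IFI30, a lysosomal thiol reductase of antigen-presenting cells that interferon-gamma induces, read 7505, 8537 and 5109 in PGF2alpha replicates 1, 2 and 3, against 2315, 1036 and 2558 in vehicle replicates 4, 5 and 6. It rose by 1.89 on the log2 scale (SE 0.327, limma adjusted p = 0.0167). MAMU-DQB1, a class II chain, rose by 0.996 (SE 0.215, limma adjusted p = 0.0338) in Mmu.10045.2.S1_x_at, whose suffix marks probes able to bind related transcripts. Its other probe set, Mmu.10045.2.S1_at, rose by 1.45 (limma adjusted p = 0.0342). They share the number 10045.2, so the second may not be separate support. IFI30 lost its call without PGF2alpha replicate 1 (limma adjusted p = 0.0637) or 2 (0.0784), and MAMU-DQB1 without PGF2alpha replicates 1 or 2 or vehicle replicates 4 or 6 (0.101 to 0.129). MAMU-DQB1 also lost it with no filter (0.0675) and with eBayes without trend (0.0566). Class II genes are also expressed by macrophages without interferon-gamma. The macrophage sum given above was likewise higher in every PGF2alpha array than in every vehicle array. Within the groups the order of arrays differed. MAMU-DQB1 was highest of the vehicle arrays in replicate 5 (336), where that sum was lowest. IFI30 and MAMU-DQB1 were lower in PGF2alpha replicate 3 than in replicate 1, while the sum was higher. The part of macrophages in these 2 calls was not tested.

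The list of chemokines and effectors of interferon-gamma held 14 tested genes, of which 2 rose and 0 fell (14.3%, beside 3.76% of all genes higher and 6.07% in either direction), with a median of 0.24. CYBB, the catalytic subunit of the phagocyte oxidase, rose by 2.005 (SE 0.303, limma adjusted p = 0.0106), and a second of its 3 probe sets also passed at 1.67 (limma adjusted p = 0.0266). CASP4, an inflammatory caspase that senses bacterial lipopolysaccharide, rose by 0.85 (SE 0.142, limma adjusted p = 0.0148), while its other probe set stood at 0.40 and did not pass (limma adjusted p = 0.186). CYBB lost its call without PGF2alpha replicate 2 (limma adjusted p = 0.0541), and CASP4 without PGF2alpha replicate 1 (0.0603) or 2 (0.0652) or vehicle replicate 6 (0.06). The other 12 tested genes of the list did not pass by their probe set of highest mean. Of all 14, 8 had positive and 6 negative log2 fold changes. SERPING1 stood at 0.77 (limma adjusted p = 0.0507) and NCF1 at 1.16 (limma adjusted p = 0.106). Another NCF1 probe set passed at 1.47 (limma adjusted p = 0.0409). These NCF1 probe sets reached their array's median only on PGF2alpha arrays. The T cell attractant CXCL11 stood at -0.56 (limma adjusted p = 0.212), the tryptophan-degrading enzyme IDO1 at -0.78 (limma adjusted p = 0.254) and the checkpoint ligand CD274 at -0.96 (limma adjusted p = 0.174). The tryptophanyl-tRNA synthetase WARS1 stood at 0.51 (limma adjusted p = 0.0745). CXCL9, the chemokine most specific to interferon-gamma, averaged 23.9 in PGF2alpha arrays and 66.8 in vehicle arrays and stayed below the filter, as did CXCL10 at 96.4 in PGF2alpha arrays and 93.6 in vehicle arrays.

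**Figure D4:**
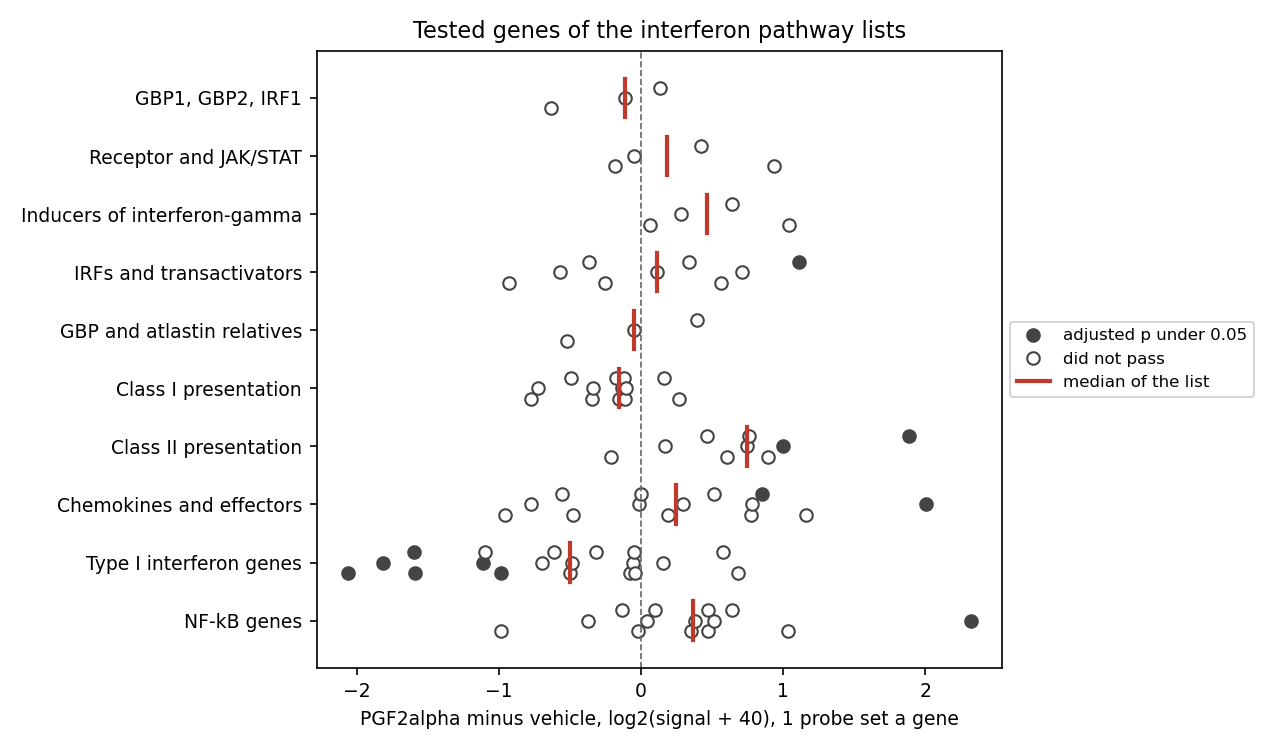
Difference between PGF2alpha and vehicle on the log2(signal + 40) scale for every tested gene of the interferon lists, with 1 probe set a gene. Filled circles passed an adjusted p under 0.05 and red bars are list medians; GBP1, GBP2 and IRF1 in the top row are all open, 8 of 9 class II genes lie to the right and the type I interferon genes that passed all lie to the left.

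Over all 7 lists of the pathway 5 of 56 tested genes (8.93%) rose and 0 fell, beside 6.07% of all genes called. Without PGF2alpha replicate 2 the count was 0, without replicate 1 it was 1 and without replicate 3 it was 10. Without vehicle replicate 4 it was 3 and without vehicle replicate 6 it was 2.

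Genes induced by type I interferon, which share the IRF1 binding motif with the interferon-gamma targets, are given for comparison. Of 19 tested, 6 fell and 0 rose, with a median of -0.50, beside 2.31% of all genes lower. ISG15, a ubiquitin-like modifier, fell by 2.07 (SE 0.358, limma adjusted p = 0.0167), the antiviral GTPase MX1 by 1.82 (SE 0.363, limma adjusted p = 0.0267) and IFI44 by 1.60 (SE 0.228, limma adjusted p = 0.00937). IFIT1, OAS3 and RIGI fell by 1.59, 1.11 and 0.99, with limma adjusted p of 0.0219, 0.0406 and 0.0161. IFI44 kept its call with each array left out, and the other 5 lost theirs without PGF2alpha replicate 1 (limma adjusted p = 0.0526 to 0.13), PGF2alpha replicate 2 (0.0616 to 0.118) or vehicle replicate 6 (0.0635 to 0.14). All of these but ISG15 also lost it without vehicle replicate 4 (0.0546 to 0.11), and OAS3 without PGF2alpha replicate 3 (0.0516). With eBayes without trend MX1 (0.055) and OAS3 (0.0746) lost theirs, and OAS3 also with no filter (0.0687) and with scaling to one median (0.0637). MX1 read 349, 329 and 279 in PGF2alpha replicates 1, 2 and 3, against 1865, 595 and 1626 in vehicle replicates 4, 5 and 6. Whether the change of GBP1, GBP2 and IRF1 differs from that of the type I genes was not tested.

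IRF1 is also a target of NF-kB, the transcription factor family of inflammatory signals. Of 14 tested genes of NF-kB signalling 1 rose and 0 fell, with a median of 0.37. That share of 7.14% is near the 6.07% of all genes called. It was the monocyte attractant CCL2, at 2.32 (SE 0.326, limma adjusted p = 0.00899). The inhibitor NFKBIA stood at 0.04 (limma adjusted p = 0.923) and TNFAIP3, which ends the signal, at -0.02 (limma adjusted p = 0.961).

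The genes whose level followed each member most closely over the 6 arrays were sought among 9977 other genes. For GBP1 they were TRERF1 (r = 0.99), PSMB8 (0.98), HES4 (0.98), LOC715822 (0.97) and SRRD (0.97). PSMB8 read 1270, 3414 and 1979 in PGF2alpha replicates 1, 2 and 3, against 2892, 2083 and 2991 in vehicle replicates 4, 5 and 6, the same order of arrays within the PGF2alpha group as GBP1. For IRF1 they were MRPL10 (0.99), NFKBIE (0.96), RNPEP (0.96), HSPA8 (0.96) and METTL6 (0.96). For GBP2 by MmuSTS.1968.1.S1_at they were PHF21A, HMCN1, AP5Z1, HPS6 and PLAGL1, with r from 0.97 to 0.995. At r of at least 0.9 there were 79 genes for GBP1, 68 for GBP2 and 35 for IRF1. Over only 6 arrays unrelated genes can reach such r, and how many would do so was not estimated. None of the 15 genes passed the test between the groups. They were chosen for likeness to members that did not pass, so this adds no information.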

How the data were processed

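Gene expression was measured on 6 Rhesus arrays with total RNA of bonnet monkey corpus luteum, 3 after PGF2alpha and 3 after vehicle, grouped and numbered by the sample titles. The values are linear signal intensities that the authors deposited per probe set, made with MAS5 as both the labels and the submitters' processing notes say (its version is not given in the sources used here). They were used without further normalization. Probe sequences are those of another macaque species, and detection calls were not used here. Symbols came from a platform annotation that can be old, which left 27535 of the probe sets with no symbol, gave 361 more than 1 and gave 24969 a single symbol.

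Values were taken as log2(signal + 40). A probe set other than the 99 controls was tested if it reached its array's median on at least 3 arrays. Groups were compared by a two-sided test in limma 3.58.1 under R 4.3.3, using lmFit and then eBayes with trend and no covariates, with Benjamini-Hochberg adjustment over 26944 probe sets and a threshold of 0.05. Intervals are 95% and unadjusted. For each gene, the tested probe set with the highest mean log2 value was used. Marker sums add the probe set of highest mean of each gene named on the array, tested or not. The fit was tested on simulated data. Members, lists, the markers and the rule for named genes (every member, listed genes that passed, up to 4 of smallest p otherwise, and 5 genes of highest r) were chosen with earlier results of these data known. Other listed genes named in the text (B2M, CIITA, CXCL9, CXCL10, GBP6, GBP7, IRF2, IRF5, NLRC5, CXCL11, IDO1, CD274, WARS1, SERPING1, NCF1, GZMA, GZMB, KLRD1, NCAM1, NCR3, LYZ, C1QA, C1QB, C1QC, NFKBIA and TNFAIP3) were picked for their role or level after their values were seen. Alternatives were 2 other scalings, 2 pseudocounts, 2 filters, 2 settings of eBayes, array weights, the run as a block or split, no cross-hybridising probe sets, and each array left out. The number of arrays limits the precision.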

Additional observations from a re-analysis of the deposited data

How the results depend on the processing

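No probe set of GBP1, GBP2 or IRF1 passed under any of the 17 alternative fits, with adjusted p from 0.066 for Mmu.11960.1.S1_at to 1.0. The GBP1 probe sets stayed negative in every fit of both runs together, and the signs that changed were those of uncalled values. Within run 2 MmugDNA.41315.1.S1_at, MmugDNA.22912.1.S1_s_at and GBP2 MmuSTS.1968.1.S1_at stood at 0.32, 0.17 and 0.33. Within run 1 MmugDNA.36433.1.S1_at, MmuSTS.2397.1.S1_s_at and IRF1 stood at -0.032, -0.459 and -0.147. With each array left out in turn, GBP1 ran from -1.166 to -0.195 in MmugDNA.41315.1.S1_at, -0.61 to -0.137 in MmugDNA.22912.1.S1_s_at, -1.487 to -0.70 in Mmu.11960.1.S1_at and -1.35 to -0.494 in Mmu.11960.1.S1_x_at, each nearest 0 without PGF2alpha replicate 1 and farthest without replicate 2. In the same way MmuSTS.1968.1.S1_at ran from -0.294 to 0.072, MmugDNA.36433.1.S1_at from -0.00028 to 0.73, MmuSTS.2397.1.S1_s_at from -0.28 to 0.40 and IRF1 from -0.029 to 0.321. The count over all probe sets was 1351, and it was 826 with no filter, 669 with eBayes without trend and 223 to 1903 with an array left out. The 5 calls of the pathway lists became 3 with no filter, 3 with eBayes without trend, 8 with array weights and 0 to 10 with an array left out. The cause of these moves was not tested. Scalings moved the median of all probe sets by at most 0.044 on the log2 scale. No paired analysis was possible because the groups share no replicate number.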
